A study of Mus musculus with 9 samples.

Results

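The genes described here are 9 members of the insulin-like growth factor (IGF) system of the mouse: the ligand Igf1, the receptors Igf1r and Igf2r, and the IGF binding proteins Igfbp2, Igfbp3, Igfbp4, Igfbp5, Igfbp6 and Igfbp7. They were chosen by name, as every array probe set annotated to one of them alone, which gave 26 of the 45037 probe sets tested and 9 of the 18193 genes measured. Another probe set, annotated to a member together with a second gene, was not used.

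IGF1 and IGF2 are secreted growth factors that act through IGF1R, a receptor tyrosine kinase that signals to PI3 kinase and AKT. IGF2R has no kinase and carries IGF2 to lysosomes. The binding proteins are secreted too. They hold IGFs in the extracellular space, prolong their life and keep them from or bring them to the receptor, and proteases release the ligand by cutting them. IGFBP7 binds IGFs weakly and is also known as a protein of basement membranes and blood vessels.

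RNA came from tracheal epithelial cells of mice hemizygous for a KRT5-GFP transgene, in which the keratin 5 promoter drives green fluorescent protein (GFP), so that cells of all 3 groups carried the transgene. Cells were sorted on GFP and on binding of the isolectin GSI-A3B into a GFP+ lectin+ gate (the GFP+ gate), a GFP- lectin+ gate (the lectin-only gate) and a GFP- lectin- gate (the columnar gate). Both lectin-binding gates carry the name basal cells in the labels and the third gate the name columnar epithelium, with 3 biological replicates of each and 9 arrays in all. Age, sex and background strain of the mice were not given in the labels used here.

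Values are log2 signals of probe sets, and differences are on the log2 scale with the limma standard error (SE). A probe set is said to have risen or fallen where its difference reached 1 (2-fold) at an adjusted p under 0.05. A background of 3.33 was taken from 80 probe sets of olfactory and vomeronasal receptors. Keratin 5 itself (Krt5) lay at 13.42 to 13.44 in GFP+ cells, 12.72 to 13.02 in lectin-only cells and 6.71 to 8.88 in columnar cells, in keeping with the labels. The mean of 15 basal cell genes lay at 11.63 to 11.88 in GFP+ cells, 10.65 to 10.94 in lectin-only cells and 7.51 to 8.07 in columnar cells. Genes of blood cells were high in lectin-only cells. The mean of 10 leukocyte genes lay at 5.68 to 6.998 in GFP+ cells, 9.11 to 10.03 in lectin-only cells and 4.68 to 5.41 in columnar cells. Replicate 3 of the lectin-only gate stood apart from the other 8 arrays, with a median signal of 5.44 against 4.91 to 5.16 and 77.1% of probe sets above background against 68.3% to 69.9%. In sorted pools, a change in the number of cells that carry an RNA and a change of RNA per cell cannot be told apart.

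Igfbp2, Igfbp3 and Igfbp7 were higher in both lectin-binding gates than in columnar cells, Igf1 was higher in lectin-only cells than in columnar cells, and Igf1r, Igf2r, Igfbp5 and Igfbp6 passed the test in no comparison. In the GFP+ gate against columnar cells, 3 of 9 genes rose, 0 fell and 6 did not pass, and 6 of their 26 probe sets rose, beside 3.86% of all probe sets called higher and 3.14% called lower. In the lectin-only gate against columnar cells, 4 of 9 genes rose, 0 fell and 5 did not pass, and 10 of 26 probe sets rose, beside 3.81% of all probe sets higher and 1.28% lower. In the GFP+ gate against lectin-only cells, Igfbp7 alone rose, by 1 of 26 probe sets beside 0.451% of all, and 1 probe set of Igf1 fell, beside 1.18% of all. Counted by gene, each by its representative probe set, 5.36%, 5.85% and 0.654% of all genes were higher in these 3 comparisons. By the same count 4.96%, 2.05% and 2.09% were lower. The median difference over the 9 genes was 0.09, 0.69 and -0.18 in these 3 comparisons, and over all probe sets it was -0.04, 0.06 and -0.09. The comparisons share arrays with each other, so their counts are not independent. Without replicate 3 of the lectin-only gate, the rises in lectin-only cells against columnar cells were 3.59 for Igfbp2, 2.36 for Igfbp3 and 3.31 for Igfbp7 and still passed, while that of Igf1 was 1.23 and did not (limma, adjusted p = 0.0838).

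**Figure D1:**
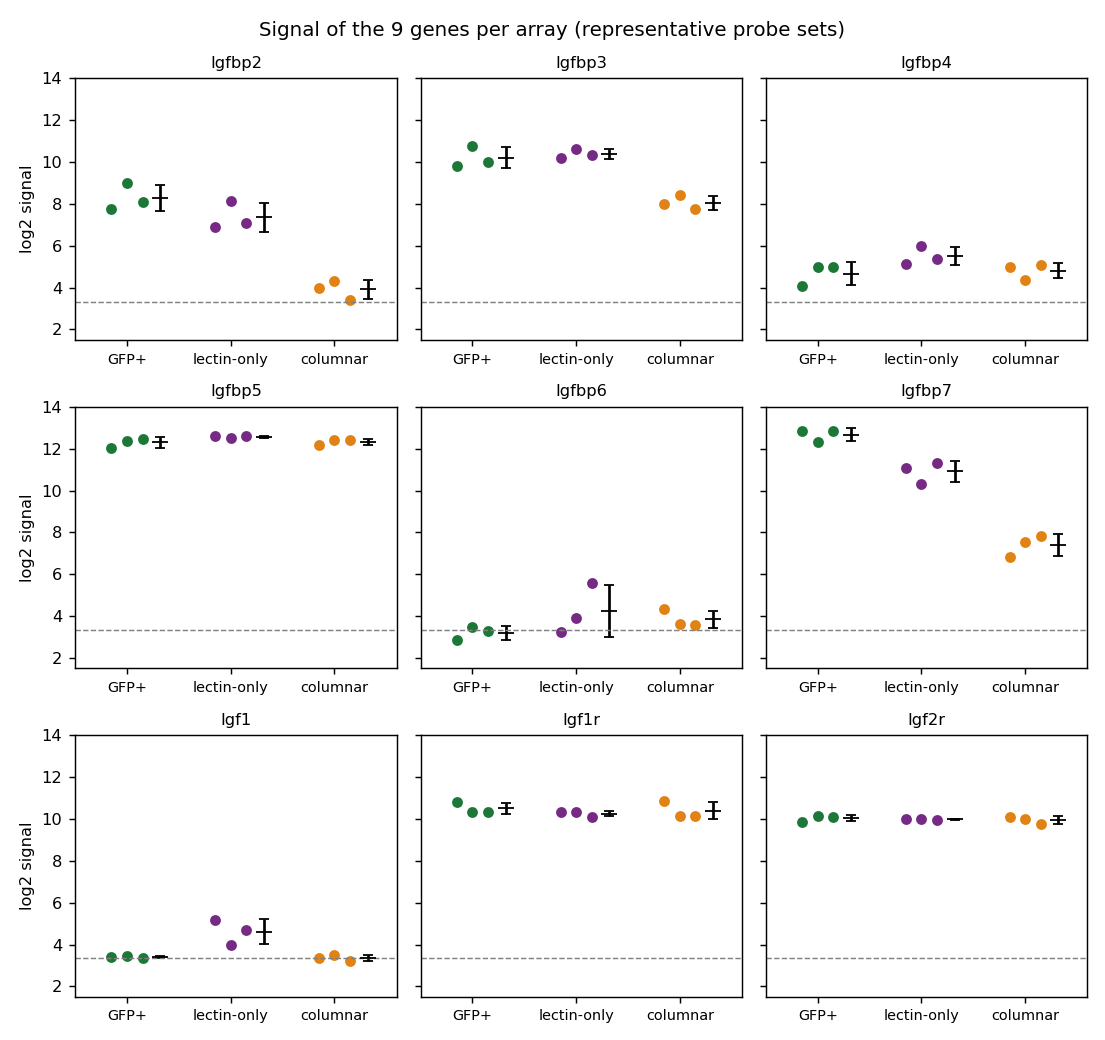
Log2 signal (vertical axis) of the representative probe set of each of the 9 genes, in panels, with 1 point per array for the GFP+, lectin-only and columnar gates from left to right. Black bars are the mean ± SD of 3 arrays and the dashed line is the background of 3.33. Igfbp2, Igfbp3 and Igfbp7 lie above all columnar arrays in both lectin-binding gates, whereas the gates overlap for Igf1r and Igf2r.

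The sequences around the start sites of the 4 genes that rose are shown because the gates differ at the RNA level of these genes. Each has 250 bases before and 50 after the start, 5′ to 3′ on the gene's strand, from RefSeq on GRCm38.p6. Igfbp7 is at chr5:77407996-77408295 on the minus strand, Igfbp2 (the first of 2 listed starts) at chr1:72824230-72824529 on the plus strand, Igfbp3 at chr11:7213874-7214173 on the minus strand and Igf1 at chr10:87860861-87861160 on the plus strand. Capitals mark matches on either strand to any of 5 motifs, the GC box GGGCGG, the CCAAT box, the TATA box TATAAA, the AP-1 motif TGANTCA and the E-box CAGGTG.
Igfbp7: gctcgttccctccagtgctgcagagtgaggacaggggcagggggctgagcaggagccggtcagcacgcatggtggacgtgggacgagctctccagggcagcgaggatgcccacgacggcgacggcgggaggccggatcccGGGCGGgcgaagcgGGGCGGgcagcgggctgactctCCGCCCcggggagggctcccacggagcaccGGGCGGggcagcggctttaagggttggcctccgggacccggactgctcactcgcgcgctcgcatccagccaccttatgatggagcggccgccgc
Igfbp2: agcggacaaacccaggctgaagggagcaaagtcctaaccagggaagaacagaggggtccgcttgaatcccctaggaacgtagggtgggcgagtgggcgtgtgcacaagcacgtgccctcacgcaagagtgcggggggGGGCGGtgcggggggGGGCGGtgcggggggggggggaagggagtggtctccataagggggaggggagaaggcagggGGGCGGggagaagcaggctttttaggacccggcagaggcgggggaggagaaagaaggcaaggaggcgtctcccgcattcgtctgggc
Igfbp3: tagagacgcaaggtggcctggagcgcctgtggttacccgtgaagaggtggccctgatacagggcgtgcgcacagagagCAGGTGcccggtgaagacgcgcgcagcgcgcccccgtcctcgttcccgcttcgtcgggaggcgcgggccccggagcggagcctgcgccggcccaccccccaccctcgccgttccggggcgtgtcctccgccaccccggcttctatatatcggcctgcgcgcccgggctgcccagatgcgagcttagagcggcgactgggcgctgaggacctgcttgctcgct
Igf1: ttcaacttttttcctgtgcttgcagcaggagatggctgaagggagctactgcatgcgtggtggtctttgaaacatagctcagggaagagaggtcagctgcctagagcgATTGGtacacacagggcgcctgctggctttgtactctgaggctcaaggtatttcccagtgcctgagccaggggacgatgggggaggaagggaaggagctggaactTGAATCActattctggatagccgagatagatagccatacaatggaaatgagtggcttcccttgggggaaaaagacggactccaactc
The Igfbp7 window holds 4 GC boxes at 73.3% GC and the Igfbp2 window 3 GC boxes at 67.0% GC, whereas 35.7% of 32851 promoters in the RefSeq table hold at least 1 GC box and the median GC content is 52.7%. The Igfbp3 window has 71.7% GC and 1 E-box, which 20.2% of all promoters hold. The second listed Igfbp2 start, not printed, has 0 GC boxes, 57.3% GC, 1 AP-1 motif and 1 E-box. The Igf1 window has 52.3% GC, 1 CCAAT box (37.4% of all promoters) and 1 AP-1 motif (7.81% of all promoters). GC boxes are also found in the windows of both receptors, which passed in no comparison, with 2 in Igf1r and 3 in Igf2r. A match is a stretch of letters and not a measured binding site.

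Igfbp7 was higher in both lectin-binding gates than in columnar cells. Its representative probe set, 1423584_at, read 12.87, 12.33 and 12.83 in GFP+ cells, 11.09, 10.34 and 11.33 in lectin-only cells and 6.80, 7.56 and 7.84 in columnar cells. The 3 gates did not overlap, and the order GFP+, lectin-only, columnar held on every array. The GFP+ gate was higher than columnar cells by 5.27 ± 0.33 (SE, n = 3 arrays per gate), 38.7-fold (limma, adjusted p = 2.6e-05). The lectin-only gate was higher than columnar cells by 3.52 ± 0.33, 11.5-fold (limma, adjusted p = 3.7e-04).

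The GFP+ gate was also higher in Igfbp7 than lectin-only cells, by 1.76 ± 0.33, 3.38-fold (limma, adjusted p = 0.0338). That call was lost when any 1 of the 6 arrays of these gates was left out, with differences of 1.47 to 1.96. The other probe sets of Igfbp7 ran in the same order. Probe set 1437804_at read 9.50, 7.92 and 8.66 in GFP+ cells, 6.91, 6.91 and 7.49 in lectin-only cells and 5.90, 5.64 and 5.59 in columnar cells. It rose by 2.99 ± 0.36 in GFP+ cells against columnar cells, whereas differences of 1.40 ± 0.36 in lectin-only cells against columnar cells (limma, adjusted p = 0.0549) and 1.59 ± 0.36 in GFP+ cells against lectin-only cells (limma, adjusted p = 0.0685) did not pass. Probe set 1423585_at averaged 8.18 ± 0.48 in GFP+ cells, 6.28 ± 1.30 in lectin-only cells and 3.30 ± 0.29 in columnar cells (SD, n = 3), and rose in both lectin-binding gates against columnar cells, by 4.88 ± 0.55 and 2.98 ± 0.55. GFP+ cells differed from lectin-only cells by 1.90 ± 0.55, which did not pass (limma, adjusted p = 0.163).

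**Figure D2:**
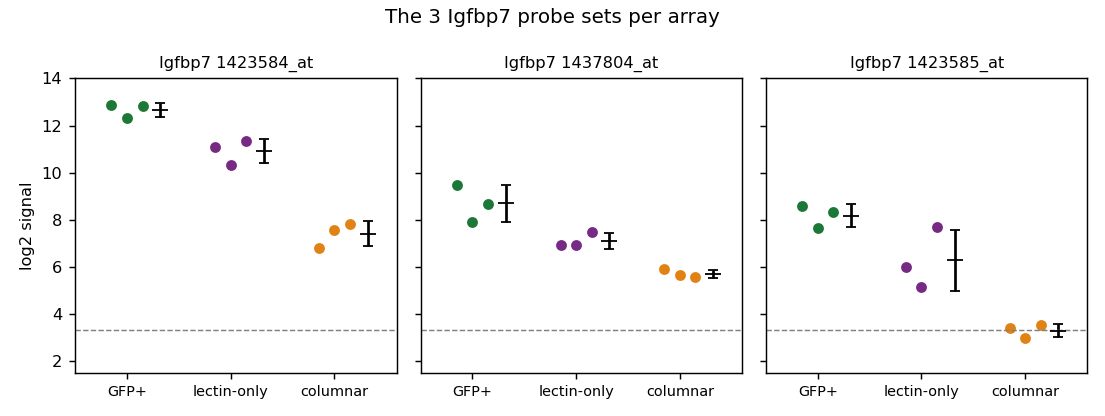
Log2 signal (vertical axis) of the 3 probe sets of Igfbp7 on each array of the GFP+, lectin-only and columnar gates, with black bars for the mean ± SD of 3 arrays and a dashed line at the background of 3.33. Means run in the same order of gates in all 3 probe sets, and for 1423585_at the lectin-only arrays spread from 5.15 to 7.70.

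Igfbp7 is also made by fibroblasts, smooth muscle and blood vessels, so genes of those cells were read beside it. The mean of 15 fibroblast genes lay at 4.38 to 4.74 in GFP+ cells, 5.58 to 6.01 in lectin-only cells and 5.10 to 5.53 in columnar cells. Of these 15, 2 rose and 5 fell in GFP+ cells against columnar cells, where 5.36% and 4.96% of all genes did. In lectin-only cells against columnar cells 3 rose and 0 fell, where 5.85% and 2.05% of all genes did. The 2 that rose in GFP+ cells ran in the same order of gates as Igfbp7. Dcn, which encodes the matrix proteoglycan decorin, lay at 10.95 to 11.59 in GFP+ cells, 8.53 to 8.97 in lectin-only cells and 6.76 to 6.99 in columnar cells. Fbln1, which encodes the matrix protein fibulin-1, lay at 8.20 to 8.70 in GFP+ cells, 7.26 to 7.72 in lectin-only cells and 3.97 to 5.95 in columnar cells. Among those that fell, the collagen gene Col1a1 lay at 3.14 to 5.19 in GFP+ cells, 6.70 to 7.77 in lectin-only cells and 6.90 to 7.61 in columnar cells. The mean of 12 endothelial genes lay at 3.56 to 3.87 in GFP+ cells, 4.50 to 4.99 in lectin-only cells and 3.42 to 3.83 in columnar cells. The platelet and endothelial adhesion gene Pecam1 lay at 3.50 to 4.41 in GFP+ cells, 4.79 to 5.11 in lectin-only cells and 3.62 to 3.77 in columnar cells. The endothelial cadherin gene Cdh5 was under background on all 3 GFP+ and all 3 columnar arrays, and it was the only one of the 12 under background on all 3 GFP+ arrays. The mean of 8 smooth muscle genes lay at 4.47 to 4.97 in GFP+ cells, 4.94 to 5.53 in lectin-only cells and 3.75 to 4.10 in columnar cells. Like Igfbp7, Igfbp2 and Igfbp3, it was higher in both lectin-binding gates than in columnar cells. That list mean was highest in lectin-only cells, and Igfbp7 and Igfbp2 had their highest mean in GFP+ cells, but single genes of the list differed in their order of gates. Of the 8 smooth muscle genes, 2 rose in GFP+ cells against columnar cells and 1 in lectin-only cells, where 5.36% and 5.85% of all genes rose. The actin gene Acta2 lay at 5.72 to 6.74 in GFP+ cells, 6.09 to 8.36 in lectin-only cells and 3.46 to 3.99 in columnar cells. The smooth muscle myosin gene Myh11 lay at 3.28 to 3.70 in GFP+ cells, 3.59 to 5.06 in lectin-only cells and 3.13 to 3.65 in columnar cells. Tagln, Cnn1, Des and Actg2 reached their highest value in lectin-only cells, as did Acta2 and Myh11, whereas Smtn and Lmod1 reached theirs in GFP+ cells. Smtn lay at 6.65 to 7.56 in GFP+ cells, 6.49 to 7.20 in lectin-only cells and 4.23 to 6.09 in columnar cells. Lmod1 lay at 5.24 to 6.22, 5.075 to 5.67 and 4.46 to 4.88 in the same gates. The part of these cell types in the result was not tested.

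Igfbp2, a binding protein with an integrin-binding motif, was close to background in columnar cells. Its single probe set read 7.76, 8.98 and 8.11 in GFP+ cells, 6.87, 8.14 and 7.07 in lectin-only cells and 3.99, 4.33 and 3.42 in columnar cells. All 6 lectin-binding arrays lay above all columnar arrays, while the GFP+ and lectin-only arrays overlapped. The rise was 4.37 ± 0.41 in GFP+ cells, 20.7-fold (limma, adjusted p = 2.2e-04), and 3.45 ± 0.41 in lectin-only cells, 10.9-fold (limma, adjusted p = 0.0013). Between the GFP+ and lectin-only gates the difference of 0.92 ± 0.41 did not pass (limma, adjusted p = 0.458), with a 95% interval of -0.01 to 1.85. In each gate, replicate 2 was the highest of the 3 arrays. With replicate numbers fitted as a block, the difference of 0.92 between the lectin-binding gates still did not pass (limma, adjusted p = 0.12).

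Igfbp3, the main IGF carrier of blood plasma, was well above background in all gates. It read 9.82, 10.78 and 10.01 in GFP+ cells, 10.19, 10.64 and 10.33 in lectin-only cells and 7.996, 8.40 and 7.75 in columnar cells. The lectin-binding gates overlapped each other, and both lay clear of the columnar gate. The rise was 2.15 ± 0.28 in GFP+ cells, 4.44-fold, and 2.34 ± 0.28 in lectin-only cells, 5.05-fold (limma, adjusted p = 0.0013 for both). The second probe set rose by 2.43 ± 0.31, 5.38-fold, in GFP+ cells and by 2.78 ± 0.31, 6.85-fold, in lectin-only cells. Unlike Igfbp7, Igfbp3 showed no step between the lectin-binding gates that passed: the GFP+ gate differed from the lectin-only gate by -0.18 ± 0.28, with a 95% interval of -0.82 to 0.45.

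**Figure D3:**
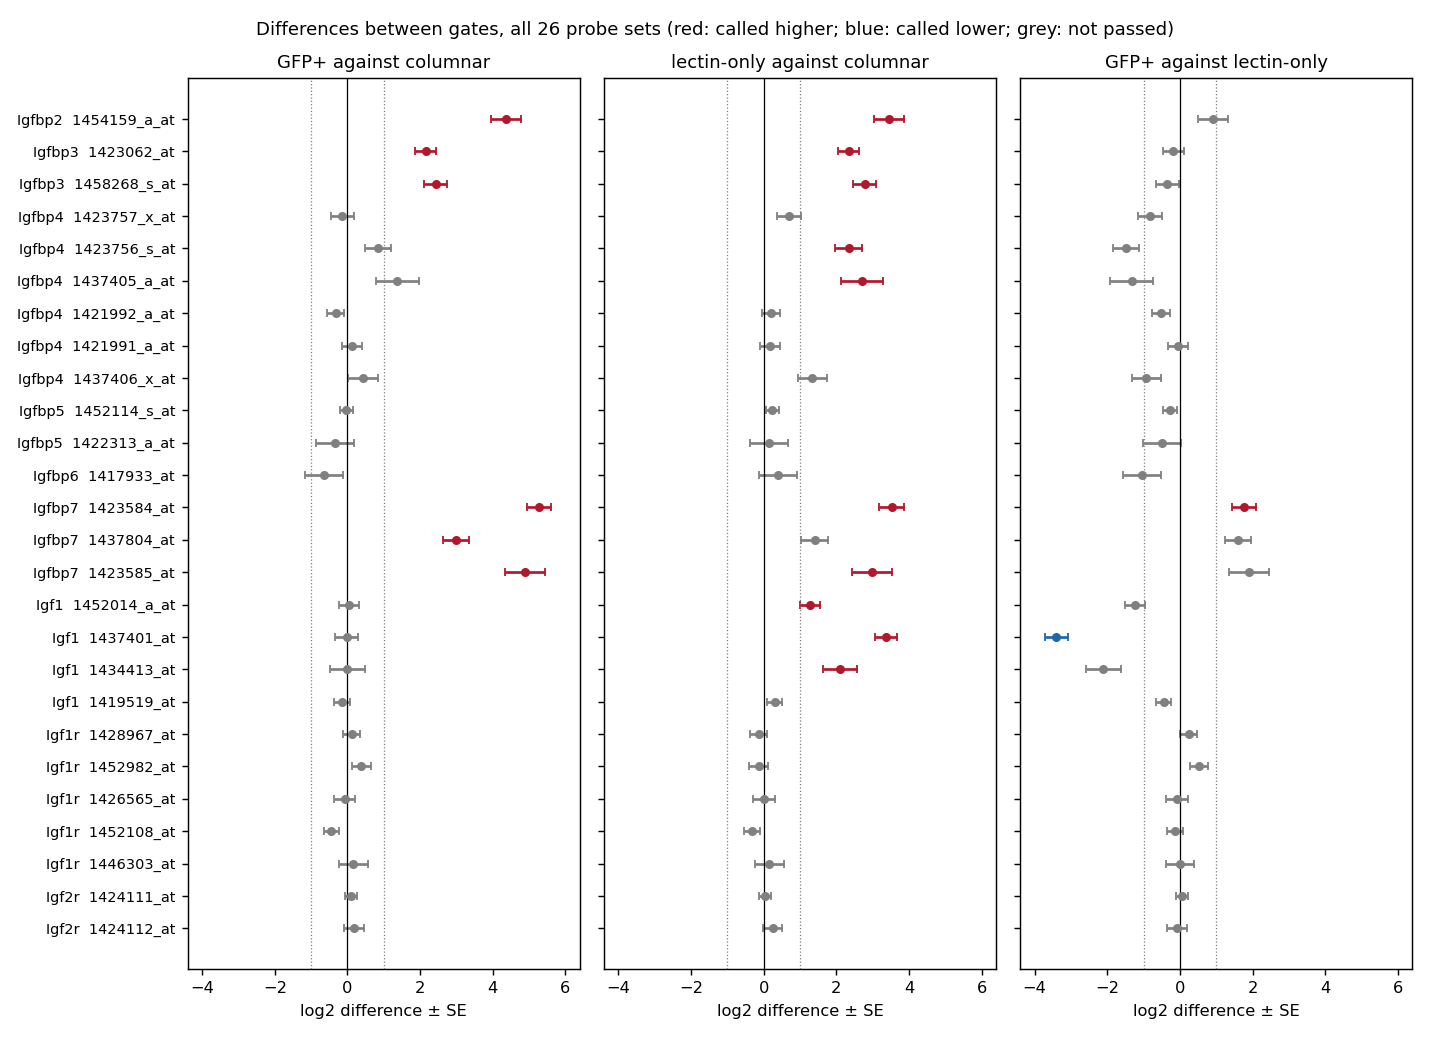
Log2 difference (horizontal axis, the first-named gate minus the second) for all 26 probe sets of the 9 genes, 1 panel per comparison. Bars are the SE, dotted lines mark -1 and 1, and called probe sets are red (higher) or blue (lower). All probe sets of Igfbp2, Igfbp3 and Igfbp7 stand to the right of 1 in both comparisons with the columnar gate, and the representatives of Igfbp5, Igf1r and Igf2r lie close to 0.

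Igfbp5, a binding protein that also attaches to extracellular matrix, was bright in all gates and passed in no comparison. It read 12.02, 12.38 and 12.49 in GFP+ cells, 12.59, 12.52 and 12.61 in lectin-only cells and 12.16, 12.43 and 12.40 in columnar cells. The lectin-only arrays lay just above all others, and GFP+ and columnar arrays overlapped. Its differences from the columnar gate were -0.03 ± 0.18 in GFP+ cells, with a 95% interval of -0.44 to 0.37, and 0.24 ± 0.18 in lectin-only cells, with an interval of -0.17 to 0.65. The second probe set averaged 10.07 ± 0.70 in GFP+ cells, 10.57 ± 1.04 in lectin-only cells and 10.42 ± 0.50 in columnar cells (SD, n = 3) and did not pass. In the RefSeq gene table Igfbp5 is the next gene to Igfbp2 on chromosome 1, with 0 genes listed between them, and Igfbp2 rose in both lectin-binding gates while Igfbp5 did not pass. Igfbp6, which prefers IGF2 as a ligand, was near background. It read 2.84, 3.45 and 3.30 in GFP+ cells, 3.22, 3.90 and 5.60 in lectin-only cells and 4.32, 3.63 and 3.59 in columnar cells, and its difference of -0.65 ± 0.52 in GFP+ cells against columnar cells did not pass although these gates did not overlap. The value of 5.60 was on the array that stood apart, and without it the lectin-only gate differed from the columnar gate by -0.29, against 0.39 with it.

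Igfbp4, known to restrain IGF action until it is cut by the protease PAPP-A, differed between its probe sets. The representative, 1423757_x_at, read 4.05, 4.98 and 4.98 in GFP+ cells, 5.15, 5.98 and 5.37 in lectin-only cells and 4.98, 4.39 and 5.06 in columnar cells, and its differences of -0.14 ± 0.33 in GFP+ cells and 0.69 ± 0.33 in lectin-only cells against columnar cells did not pass. Probe set 1423756_s_at read 4.39, 4.96 and 4.69 in GFP+ cells, 5.42, 6.34 and 6.76 in lectin-only cells and 4.38, 3.66 and 3.48 in columnar cells. It rose in lectin-only cells against columnar cells by 2.33 ± 0.36, 5.04-fold (limma, adjusted p = 0.0047). Probe set 1437405_a_at rose there too, by 2.71 ± 0.58 (limma, adjusted p = 0.0241), a call lost without lectin-only replicate 3 (2.06, limma, adjusted p = 0.0558) and without columnar replicate 2 or 3. The remaining 3 probe sets of Igfbp4 did not pass in any comparison.

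Igf1, the ligand, was above background in lectin-only cells and close to or under it in both others. Its representative probe set, 1452014_a_at, read 3.40, 3.43 and 3.36 in GFP+ cells, 5.18, 3.98 and 4.71 in lectin-only cells and 3.34, 3.49 and 3.22 in columnar cells. All 3 lectin-only arrays lay above all others. The rise in lectin-only cells against columnar cells was 1.27 ± 0.28, 2.41-fold (limma, adjusted p = 0.0259), and the difference of -1.22 ± 0.28 in GFP+ cells against lectin-only cells did not pass (limma, adjusted p = 0.0685). That rise was no longer called without lectin-only replicate 1 or 3, or without any 1 of the columnar arrays, with differences of at least 0.99.

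A second probe set of Igf1, 1437401_at, separated the gates further. It read 1.97, 2.64 and 2.42 in GFP+ cells, 5.76, 5.16 and 6.31 in lectin-only cells and 2.64, 2.33 and 2.14 in columnar cells. The GFP+ and columnar arrays were all under background, so the fold is a bound. The adjusted p beside it is of the difference in the deposited values. The lectin-only gate was at least 5.31-fold higher than columnar cells (limma, adjusted p = 2.9e-04), and the GFP+ gate was at least 5.31-fold lower than lectin-only cells (limma, adjusted p = 9.7e-04). These calls were kept without any 1 array. Probe set 1434413_at read 5.06, 3.49 and 5.80 in lectin-only cells and stayed under background on all arrays of the other gates, a rise of at least 2.74-fold against columnar cells. The call rests on a difference of 2.10 ± 0.47 in the deposited values (limma, adjusted p = 0.0308). It was lost on leaving out any of 7 of the 9 arrays. The fourth probe set was under background on all 9 arrays.

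**Figure D4:**
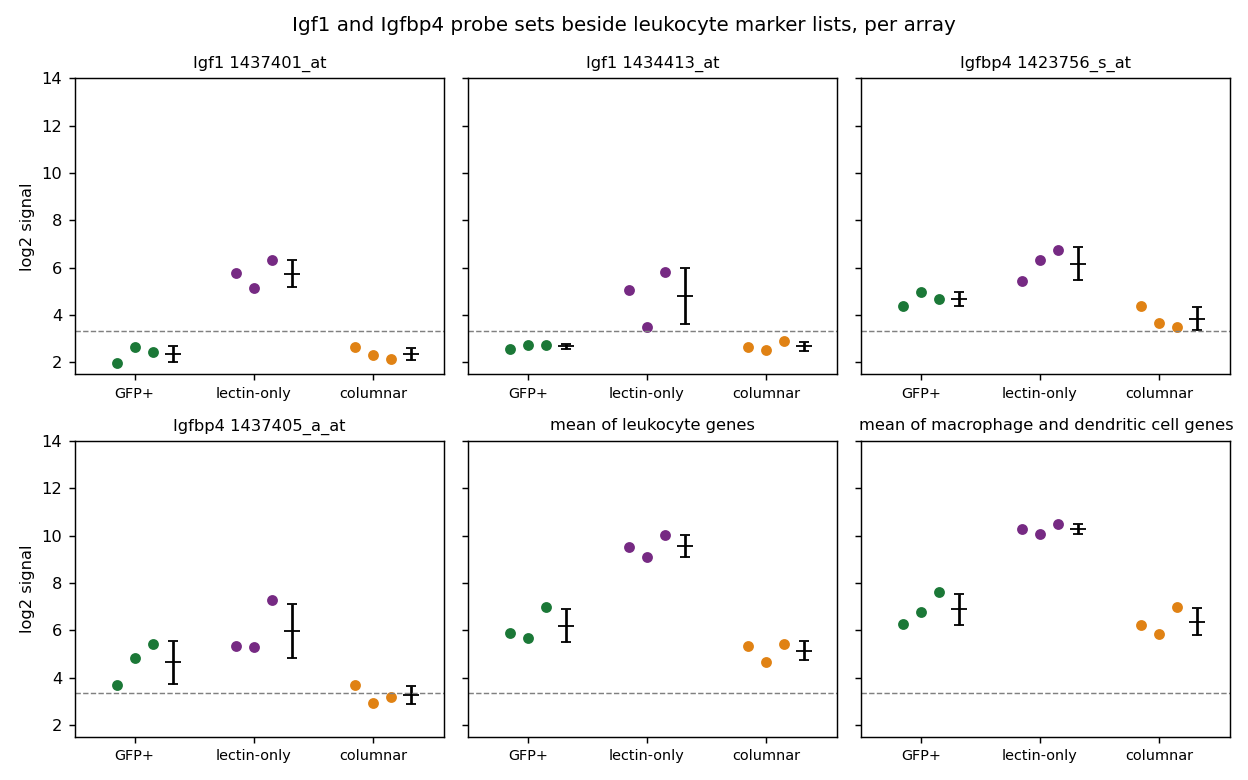
Log2 signals (vertical axes) of 2 Igf1 and 2 Igfbp4 probe sets that rose in lectin-only cells, and the mean log2 signals of the leukocyte genes and of the macrophage and dendritic cell genes, per array of the GFP+, lectin-only and columnar gates. Black bars are the mean ± SD of 3 arrays, the dashed line is the background of 3.33, and in all 6 panels the mean is highest in lectin-only cells.

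The Igf1 and Igfbp4 probe sets that rose had their highest mean in the lectin-only gate, as did genes of blood cells. All 10 leukocyte genes rose in lectin-only cells against columnar cells, and the mean of 12 macrophage and dendritic cell genes lay at 6.29 to 7.61 in GFP+ cells, 10.07 to 10.51 in lectin-only cells and 5.86 to 6.99 in columnar cells, with 11 of 12 risen in lectin-only cells against columnar cells. The macrophage gene Adgre1 lay at 3.19 to 4.41 in GFP+ cells, 7.54 to 8.29 in lectin-only cells and 3.35 to 4.15 in columnar cells, and Ptprc, which encodes the leukocyte antigen CD45, at 4.73 to 6.38, 8.29 to 9.72 and 2.53 to 4.36 in the same gates. Of the 12 endothelial genes, 3 rose in lectin-only cells against columnar cells and 9 did not pass, where 5.85% of all genes rose. The means of the fibroblast and smooth muscle genes, given above, were also highest in lectin-only cells. Of these, 3 of 15 fibroblast genes and 1 of 8 smooth muscle genes rose in lectin-only cells against columnar cells. The part of all these cell types in the result was not tested. In GFP+ cells against columnar cells the median difference of the 10 leukocyte genes was 1.05 and 0 of them passed, with 0 to 4 called under the alternatives.

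The receptors showed no difference that passed. Igf1r read 10.81, 10.36 and 10.36 in GFP+ cells, 10.36, 10.32 and 10.11 in lectin-only cells and 10.86, 10.16 and 10.17 in columnar cells, so the gates overlapped. The differences were 0.11 ± 0.24 in GFP+ cells and -0.13 ± 0.24 in lectin-only cells against columnar cells, with 95% intervals of -0.42 to 0.64 and -0.67 to 0.40. None of its other 4 probe sets passed in any comparison. Igf2r read 9.87, 10.15 and 10.11 in GFP+ cells, 10.002, 10.01 and 9.96 in lectin-only cells and 10.08, 10.02 and 9.76 in columnar cells, again with overlapping gates. Its differences had 95% intervals of -0.29 to 0.47 for the GFP+ gate and -0.34 to 0.42 for the lectin-only gate against columnar cells. The second probe set of Igf2r did not pass either. For the representative probe sets of both receptors these intervals lay within 2-fold in either direction.

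The rest of the pathway was read from 5 lists with 61 genes, of which 57 were measured, each counted by its representative probe set. In the GFP+ gate against columnar cells 3 of the 57 rose and 4 fell, where 5.36% and 4.96% of all genes did. In the lectin-only gate against columnar cells 4 rose and 2 fell, where 5.85% and 2.05% of all genes did, and in GFP+ cells against lectin-only cells 0 rose and 1 fell, where 0.654% and 2.09% did. These shares are near those of all genes, and the changes below are of single genes.

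Among 7 other ligands, receptors and binding proteins, Igf2, the second IGF ligand, was the one that passed. It read 6.80, 5.62 and 6.45 in GFP+ cells, 5.69, 5.62 and 5.70 in lectin-only cells and 4.54, 4.35 and 4.49 in columnar cells. Both lectin-binding gates lay above all columnar arrays. The rise was 1.83 ± 0.27 in GFP+ cells, 3.56-fold (limma, adjusted p = 0.0027), and 1.21 ± 0.27 in lectin-only cells, 2.31-fold (limma, adjusted p = 0.0322), the last a call lost on leaving out any of 7 of the 9 arrays. Its other probe set was under background on all 9 arrays. The insulin receptor gene Insr averaged 8.92 ± 0.35 in GFP+ cells, 8.89 ± 0.35 in lectin-only cells and 9.35 ± 0.19 in columnar cells (SD, n = 3) and did not pass.

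Among 12 proteins that share an IGFBP-type domain, Htra1, a secreted serine protease that can cut IGF binding proteins, rose in both lectin-binding gates. It read 9.97, 9.91 and 10.90 in GFP+ cells, 9.23, 8.13 and 9.25 in lectin-only cells and 5.35, 5.36 and 5.93 in columnar cells, with all columnar arrays below all others. The rise was 4.71 ± 0.37 in GFP+ cells, 26.2-fold (limma, adjusted p = 8.1e-05), and 3.32 ± 0.37 in lectin-only cells, 9.97-fold (limma, adjusted p = 8.4e-04). Its relative Htra3 fell in GFP+ cells against columnar cells by 1.55 ± 0.34 (limma, adjusted p = 0.021), a call lost without GFP+ replicate 1 or columnar replicate 2 or 3. Ccn3, a matricellular protein, fell by 1.68 ± 0.22 in GFP+ cells and by 1.16 ± 0.22 in lectin-only cells against columnar cells, and the second of these was lost without lectin-only replicate 2.

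Among 10 proteases of IGF binding proteins and their inhibitors, Stc2, a secreted inhibitor of the PAPP-A proteases, fell where Htra1 rose. It read 4.51, 4.91 and 5.07 in GFP+ cells, 6.23, 5.68 and 6.62 in lectin-only cells and 9.31, 9.12 and 9.47 in columnar cells, so the gates did not overlap. It fell by 4.47 ± 0.26 in GFP+ cells, 22.2-fold (limma, adjusted p = 1.8e-05), and by 3.12 ± 0.26 in lectin-only cells, 8.72-fold (limma, adjusted p = 2.1e-04), against columnar cells. Both other probe sets of Stc2 fell in both gates. Against the lectin-only gate the representative differed in the GFP+ gate by -1.35 ± 0.26 (limma, adjusted p = 0.0363), a call that held only without lectin-only replicate 2 when arrays were left out singly. The other probe sets did not pass there, at -0.22 (limma, adjusted p = 0.903) and -0.02 (limma, adjusted p = 0.996), and the mean of all 3 gave -0.53 (limma, adjusted p = 0.506). Pappa itself lay under background on all 3 GFP+ and all 3 lectin-only arrays and on 2 of the 3 columnar arrays. Plau, the urokinase plasminogen activator, rose in lectin-only cells against columnar cells by 1.97 ± 0.28 in the deposited values (limma, adjusted p = 0.0028). The columnar arrays were under background, so the fold is a bound of at least 1.99. With values under background set to it, the difference of 0.99 was no longer called. Its other probe set was under background on all 9 arrays.

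**Figure D5:**
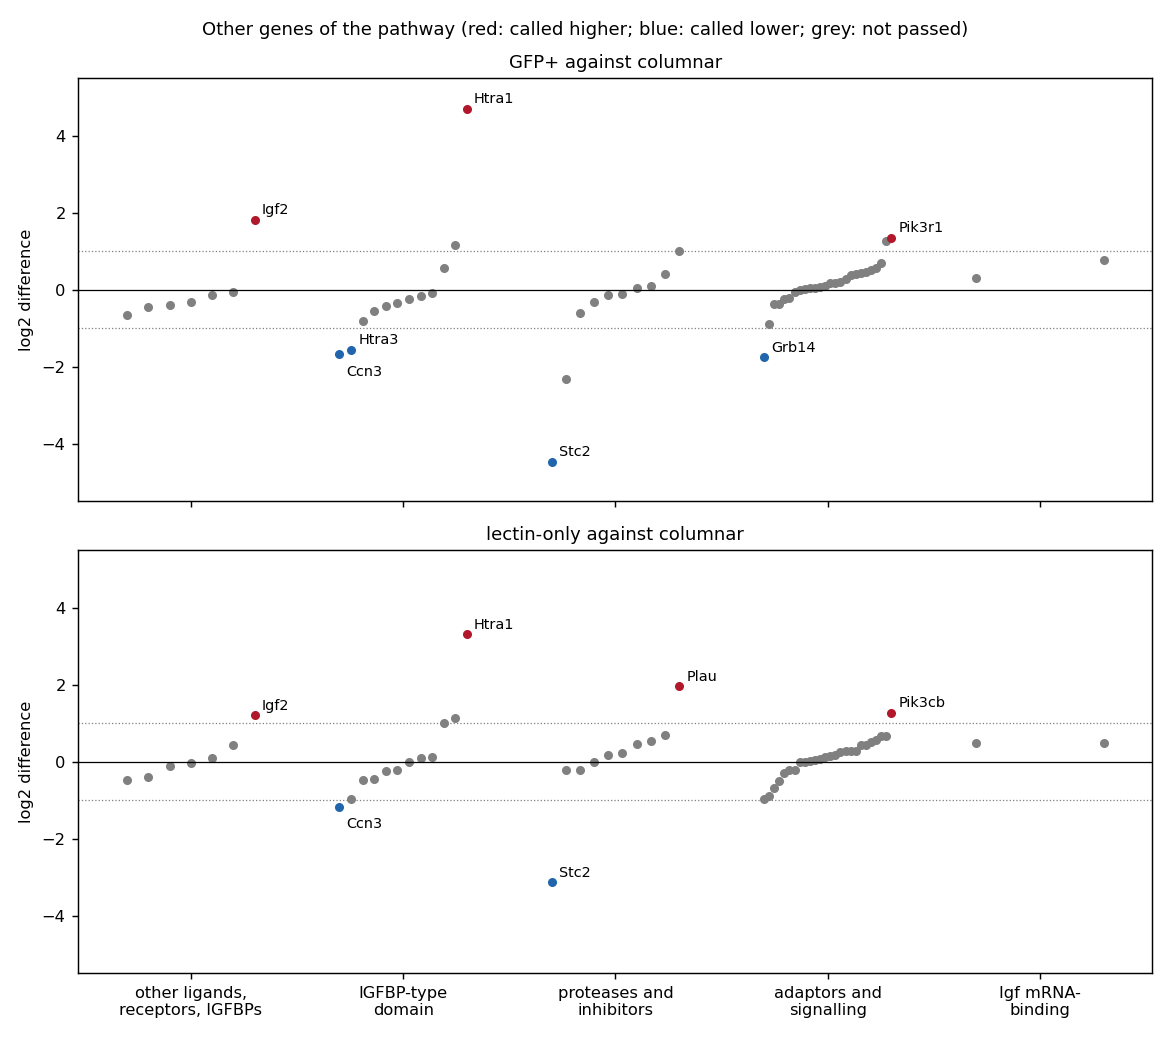
Log2 difference of the representative probe set of each measured pathway gene (vertical axis), by list along the horizontal axis, in GFP+ cells and in lectin-only cells against columnar cells. Called genes are labelled, red for higher and blue for lower. Htra1 stands highest and Stc2 lowest in both panels, and most genes of the 5 lists lie between -1 and 1.

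Among 26 adaptors and signalling genes, Pik3r1, the regulatory subunit of PI3 kinase, rose in GFP+ cells against columnar cells by 1.36 ± 0.24 (limma, adjusted p = 0.0065), at 11.27 ± 0.38 in GFP+ cells and 9.91 ± 0.16 in columnar cells (SD, n = 3). Grb14, an adaptor that blocks signalling from insulin-type receptors, fell there by 1.74 ± 0.18 (limma, adjusted p = 3.0e-04). Its other probe set was under background on all 9 arrays. The mean of its probe sets gave -0.88 (limma, adjusted p = 0.0044), which is less than 2-fold and was not called. Pik3cb, a catalytic subunit of PI3 kinase, rose in lectin-only cells against columnar cells by 1.28 ± 0.30 (limma, adjusted p = 0.0389), a call lost on leaving out any of 6 arrays. The other 23 did not pass in any comparison, and neither did Igf2bp1 or Igf2bp3, which bind Igf2 mRNA.

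The genes whose signals ran most like those of the 4 that rose are given by Pearson correlation over the 9 arrays, among 16299 genes. The 9 points fall into 3 gates, so a high value mostly says that the gates are in the same order. For Igfbp7 they were Artn, a ligand of the GDNF family, at r = 0.996, Rgs12, a regulator of G protein signalling, at 0.995 and Plek2 at 0.994. For Igfbp2 they were Hs6st1, a heparan sulfate sulfotransferase, at 0.984, Birc5, which encodes survivin, at 0.980 and the homeobox gene Barx2 at 0.979. For Igfbp3 they were Zfp282 at 0.984, Apcdd1, an inhibitor of Wnt signalling, at 0.981 and the tropomyosin gene Tpm2 at 0.980. For Igf1 they were the phosphodiesterase gene Pde1b at 0.989, Klhl4 at 0.986 and the homeobox gene Hoxd8 at 0.982, all at low levels, with gate means of at most 4.58.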

How the data were processed

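The files held log2 signals of probe sets per array, deposited by the authors after RMA, per the submitters' processing notes. The RNA was amplified, labelled with biotin and hybridised to Affymetrix mouse arrays, per the labels' protocols. A version of RMA is not given in the sources used here. Of 45101 probe sets, 64 were controls and were left out. In the platform's annotation 34945 probe sets had 1 symbol, 932 had several and 9160 had none.

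Gate means were fitted to all 9 arrays and all 45037 probe sets with limma 3.58.1 in R 4.3.3 (lmFit, eBayes), with Benjamini-Hochberg adjustment over all probe sets within a comparison. The fit was tested on simulated data. With 3 arrays per gate the median SE was 0.26 on the log2 scale. A gene was represented by its probe set of highest mean over the arrays. The background was the 95th percentile of the mean signals of 80 receptor probe sets. Where every array of a gate was under it, each such array was set to the background to give a fold of "at least" that size. Any adjusted p beside such a fold is of the difference in the deposited values.

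All 9 members were named, with up to 8 called genes per pathway list and comparison, defining genes of the marker lists, and the 3 most similar genes of each called member. Insr, Pappa, Dcn and Fbln1 were named after their values were seen. The members and lists were chosen with earlier results of these data known. Promoter sequences came from RefSeq. Alternatives changed the scaling, the treatment of dim values and of several probe sets per gene, the gates fitted, the replicate block and the arrays left out.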

Additional observations from a re-analysis of the deposited data

How the results depend on the processing

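The rises of Igfbp2, Igfbp3 and Igfbp7 in both lectin-binding gates against the columnar gate were kept under all 18 alternatives, with differences in the GFP+ gate of 4.02 to 4.63, 1.86 to 2.34 and 4.38 to 5.49, and in the lectin-only gate of 3.06 to 3.69, 2.09 to 2.56 and 2.63 to 3.81. No called result changed sign. The rise of Igf1 in the lectin-only gate against the columnar gate was lost under 7 of 18 alternatives, with adjusted p from 0.0012 to 0.0851 (limma). The mean of all probe sets of a gene called Igfbp4 there (1.24, limma, adjusted p = 0.0198) and Igf1 in the GFP+ gate against the lectin-only gate (-1.80, limma, adjusted p = 0.0030). With values under background set to it, the difference of Igfbp7 between the GFP+ and lectin-only gates no longer passed (limma, adjusted p = 0.119). Members called in that comparison were then 0 higher, and leaving out arrays gave 0 to 1 higher and 0 to 1 lower. With 1 probe set per gene, and also with the mean of probe sets, they were 1 higher and 1 lower, against 1 higher and 0 lower without these changes.

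Counts over all probe sets moved more. In the GFP+ gate against the columnar gate, 1737 higher became 1069 with 1 probe set per gene and 959 with the mean of probe sets, and 1416 lower became 909 with the mean, where fewer features were tested. In the lectin-only gate against the columnar gate, 1714 higher became 1099 with the mean and 1018 with dim values set to background, and 575 lower became 331 with the last. In the GFP+ gate against the lectin-only gate, 203 higher and 533 lower became 73 and 204 with dim values set to background, and leaving out 1 array gave 67 to 196 higher and 225 to 569 lower. Centring each array on its median moved the median difference of all probe sets by -0.09, -0.25 and 0.16 in the 3 comparisons and the calls to 1411 higher and 1030 lower in the lectin-only gate against the columnar gate and 328 higher and 502 lower in the GFP+ gate against the lectin-only gate. Further quantile normalization gave 1473 and 820 in the first of these. Counts of members were the same under both scalings. Whether replicate numbers pair the arrays was not settled. Correlations r of same-numbered deviations ran from -0.07 to 0.30, over 0.1 in 5 of 9, and those of differently numbered ones from -0.40 to 0.11. With the replicate block the members called stayed 3, 4 and 1 higher and 0 lower. Over all probe sets it gave 1963 higher and 1520 lower in the GFP+ gate against the columnar gate.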
